A study of Mus musculus with 2 samples.

Results

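The genes described here encode the main enzymes that cut extracellular matrix in mammals and the inhibitors that hold them in check. They were taken by symbol from the gene rows of 1 single-cell RNA sequencing library of colonies grown from mouse aorta. All matrix metalloproteinases (Mmp), disintegrin metalloproteinases (Adam and Adamts), the ADAMTS-like genes (Adamtsl) and the tissue inhibitors of metalloproteinases (Timp) were kept, which gave 83 of 32285 genes. These were 22 Mmp, 33 Adam, 19 Adamts, 5 Adamtsl and 4 Timp genes. Per the labels, the cells came from dorsal aorta of C57BL/6J mice (2 males, 12 weeks of age), whose cells the labels do not tell apart, and formed macrophage colonies over 14 days in methylcellulose before sorting of viable cells. No treatment or genotype was compared, and with 1 library there is no replicate, so no test between cell classes was made.

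The 30755 cells kept were clustered without these genes, and clusters were named from marker genes, which gave 3 classes. The label calls the cells macrophage progenitors, but mast cell-like cells were the largest class with 22238 cells (72.3%) in 6 clusters. Fibroblast-like cells numbered 5431 (17.7%) in 1 cluster and macrophage-like cells 2721 (8.85%) in 1 cluster. All 8 fibroblast markers and all 8 macrophage markers passed in their clusters, and 5 to 7 of 7 mast cell markers passed in each mast cell-like cluster. The remaining 365 cells (1.19%) stayed unnamed. Median depth was 31181 unique molecular identifiers (UMIs, each marking 1 captured RNA molecule) in fibroblast-like, 8780 in macrophage-like and 11444 in mast cell-like cells. Counts of 3 sample tags named Cafum, Matrigel and Macrophages, which the labels do not describe, are held in the same matrix. Of mast cell-like cells 71.1% carried the Cafum tag alone, of fibroblast-like cells 48.1% the Matrigel tag alone and of macrophage-like cells 71.5% the Macrophages tag alone, so class and tag were largely the same split of the cells. Several tags were carried by 23.8% of fibroblast-like and 26.0% of macrophage-like cells, against 3.43% of mast cell-like cells. Xist, an RNA made from the inactive X chromosome of female cells, was at 704, 357 and 381 CPM in the fibroblast-like, macrophage-like and mast cell-like cells, which goes against the label of male mice.

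Metalloproteinases of these families are made as inactive precursors and cut matrix proteins, cell-surface proteins or other proteases once their propeptide is removed. TIMPs bind the active site and block it, and TIMP2 also takes part in the activation of MMP2 at the cell surface by MMP14. Fibroblasts are a known source of MMP2, MMP3 and TIMPs, macrophages of MMP9, MMP12 and MMP13, and mast cells are known for serine proteases of their granules that can activate pro-MMPs.

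The active site of these enzymes is a short stretch in which 3 histidines hold a zinc ion and a glutamate takes part in catalysis, usually with a glycine between the second and the last histidine. In translated GENCODE M21 coding transcripts (GRCm38) this 11-residue site with its glycine was found in all 22 Mmp genes, in 20 of 33 Adam genes and in 13 of 19 Adamts genes. A search that allowed any residue in place of the glycine, added after this result was seen, found the site in the other 6 Adamts genes, with an asparagine codon in 5 (Adamts1, Adamts4, Adamts9, Adamts15 and Adamts20) and a serine codon in Adamts8. No Timp or Adamtsl gene held it, nor did 13 Adam genes, among them Adam22, Adam23 and Adam32. The coding DNA of the site, 33 bases, is shown for members on which the results below turn, 5′ to 3′, with the codons of the histidines, the glutamate and the glycine or asparagine in capitals.
Mmp2: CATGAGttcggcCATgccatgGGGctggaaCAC
Mmp3: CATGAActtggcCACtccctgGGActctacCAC
Mmp9: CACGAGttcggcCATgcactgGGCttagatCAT
Mmp12: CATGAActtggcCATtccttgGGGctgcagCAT
Mmp13: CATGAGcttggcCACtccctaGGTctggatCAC
Mmp14: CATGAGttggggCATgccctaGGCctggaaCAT
Adam10: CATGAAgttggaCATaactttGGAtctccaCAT
Adam17: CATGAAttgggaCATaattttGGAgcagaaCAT
Adamts1: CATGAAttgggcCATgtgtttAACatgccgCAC
Adamts4: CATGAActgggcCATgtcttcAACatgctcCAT
Adamts5: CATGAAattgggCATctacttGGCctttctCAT
Adamts6: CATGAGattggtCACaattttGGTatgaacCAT
In the Mmp genes the site lies within 1 exon in all 22, for example in Mmp2 on the plus strand at chr8:92839279-92839311 and in Mmp9 on the plus strand at chr2:164951133-164951165. In all 19 Adamts genes an intron splits it, as in Adamts1 on the minus strand, where the site spans chr16:85799191-85799545, and among the 20 Adam genes with the site only that of Adam10 is split.

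Levels are given as CPM, the UMIs of a gene per 1000000 gene UMIs summed over all cells of a class, with exact Poisson 95% intervals that cover counting error only. A gene was counted as higher in a class at 5 CPM or more and at least 4 times the level of the other class. By this rule 25 of the 83 members (30.1%) were higher in fibroblast-like than in mast cell-like cells, against 5.83% of all 32285 genes. Over macrophage-like cells 18 members were higher in fibroblast-like cells, against a background of 4.33%. In macrophage-like cells 5 members were higher than in fibroblast-like cells (background 2.8%) and 14 higher than in mast cell-like cells (background 3.71%). No member was higher in mast cell-like than in fibroblast-like cells (background 2.23%) or than in macrophage-like cells (background 0.183%). Among members at 5 CPM or more in either class of a pair, the median log2 ratio of fibroblast-like to mast cell-like levels was 5.30 over 35 members, beside 0.010 over 11303 genes, and that of fibroblast-like to macrophage-like levels was 1.29 over 39 members, beside 0.10 over 11487 genes. These medians are descriptions, since a member could enter through the class in which it is high.

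In all, 40 members reached 5 CPM in a class, 39 had UMIs but stayed below it, and 4 (Adam6a, Adam6b, Adam26a and Adam26b) had no UMI. Fibroblast-like cells were above both other classes for 18 members, against 3.95% of all genes, and macrophage-like cells for 5, against 1.88%. Mast cell-like cells were so for none (background 0.0805%), while 17 members reached 5 CPM without being above both other classes anywhere. Summed over all 83, members made up 0.569% of the UMIs of fibroblast-like cells, 0.1396% of those of macrophage-like cells and 0.0456% of those of mast cell-like cells.

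RNA from other cells is present in these droplets, and its size can be read from marker genes. The 8 fibroblast markers were found in macrophage-like cells at 0.0193 to 0.0395 of their fibroblast-like level and in mast cell-like cells at 0.0143 to 0.0275. The 8 macrophage markers were at 0.00646 to 0.0484 of their level in fibroblast-like cells and at 0.00318 to 0.0190 in mast cell-like cells. The 7 mast cell markers were at 0.138 to 0.157 in fibroblast-like cells and at 0.309 to 0.387 in macrophage-like cells. At these ratios none of the mast cell markers would itself be counted as higher in mast cell-like than in macrophage-like cells, so the count of 0 members there cannot be told apart from this background. Of the 18 fibroblast-like members, 10 had a mast cell-like level within the range of the fibroblast markers, 5 lay below it and 3 above. In macrophage-like cells 11 lay within the range, 2 below and 5 above. Levels within or below the range cannot be told apart from that background.

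**Figure D1:**
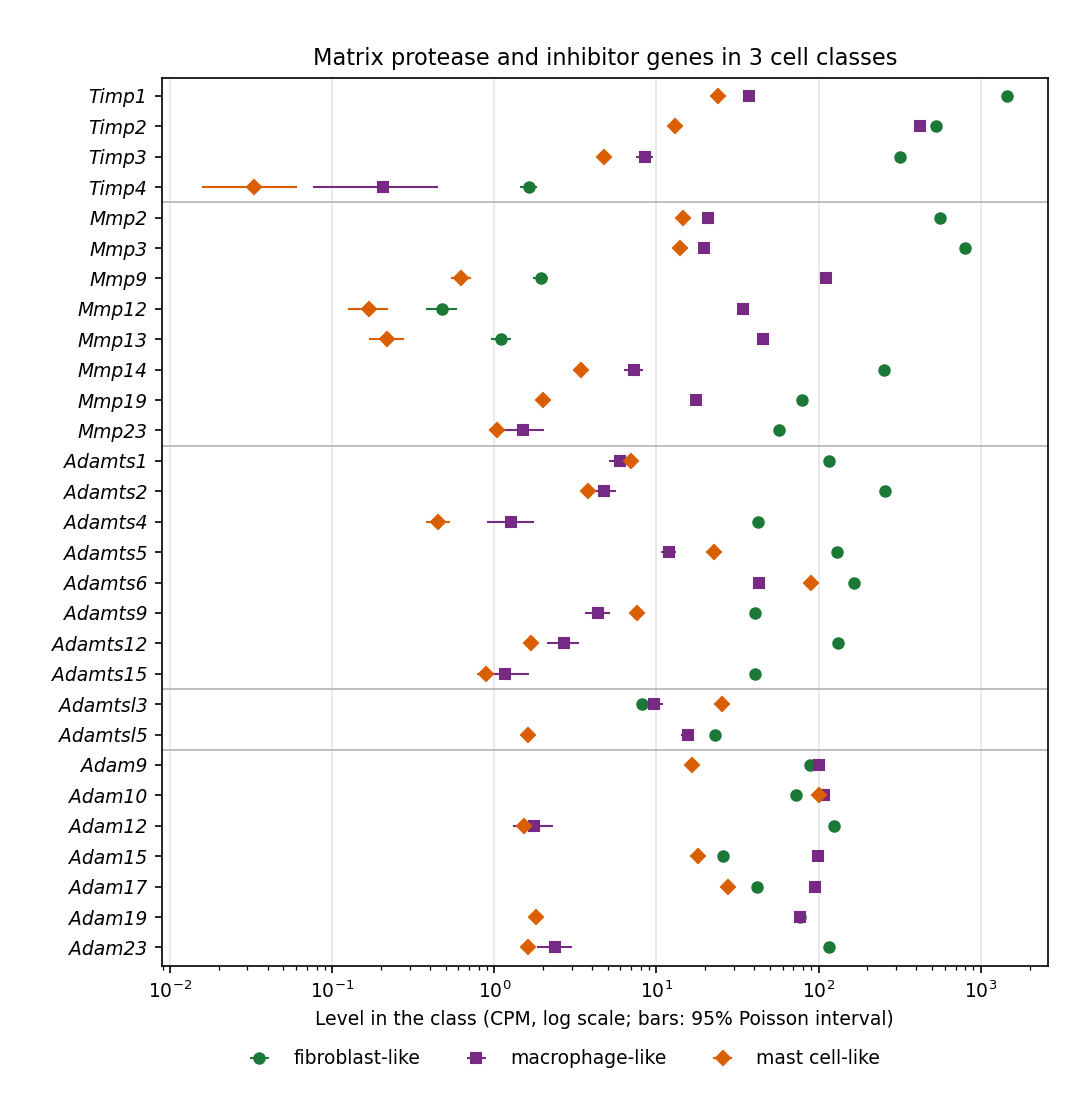
Level of the 29 named members (rows, by family) in 3 cell classes of 1 library, in CPM on a log axis with 95% Poisson intervals. Most Timp, Mmp and Adamts points of fibroblast-like cells lie far to the right, Mmp9, Mmp12 and Mmp13 are highest in macrophage-like cells, and Adamtsl3 in mast cell-like cells. The fibroblast-like and macrophage-like points of Adam19 (76.7 and 76.6 CPM) coincide.

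Of the inhibitors, 3 of 4 TIMPs reached 5 CPM and differed in the cells that held them. Timp1, a secreted inhibitor of many MMPs (chromosome X, 20870166–20874735, plus strand), was at 1454 CPM (1448–1459.7) in fibroblast-like, at 37.3 CPM in macrophage-like and at 23.9 CPM in mast cell-like cells. Timp3, which binds matrix and also inhibits ADAM17 and ADAMTS enzymes, was at 318 CPM (315–320.2), 8.46 CPM and 4.74 CPM in the same order. Timp2 (chromosome 11, 118301069–118355740, minus strand) was shared by fibroblast-like cells at 532 CPM (528–535) and macrophage-like cells at 422 CPM (414–429), and was at 13.04 CPM in mast cell-like cells. Each of these 3 was thus high in fibroblast-like cells, and Timp2 alone was also high in macrophage-like cells, at 32.3 times its mast cell-like level. Timp4 was at 1.63 CPM (1.44–1.83) in fibroblast-like cells, with 6 UMIs in macrophage-like and 10 UMIs in mast cell-like cells. To compare shares of cells, cells were thinned to 6000 UMIs, which left out shallower cells (217 fibroblast-like, 659 macrophage-like and 1940 mast cell-like). Timp1 was then detected in 93.8% of fibroblast-like, 16.1% of macrophage-like cells and 13.8% of mast cell-like cells, and Timp2 in 90.4%, 81.7% and 7.82%. Without thinning these shares were 98.6%, 26.2% and 25.8% for Timp1 and 98.0%, 89.9% and 15.3% for Timp2. The shares of Timp1 outside fibroblast-like cells can be read against those of Col1a1, which encodes the main fibrillar collagen chain of fibroblasts, at 28.0% of macrophage-like cells and 24.4% of mast cell-like thinned cells. Timp1, Timp3 and Timp4 each overlap a synapsin gene on the opposite strand (Syn1, Syn3 and Syn2), and Timp2 overlaps Cep295nl on the same strand. How the counting treated strand and introns is not given in the sources used here.

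The 2 gelatinases, which cut denatured collagen and type IV collagen of basement membranes, were split between classes. Mmp2 (chromosome 8, 92827291–92853420, plus strand) was at 561 CPM (558–565) in fibroblast-like, at 20.8 CPM (19.2–22.5) in macrophage-like and at 14.5 CPM (14.1–14.95) in mast cell-like cells. Mmp9 (chromosome 2, 164940780–164955850, plus strand) was at 1.93 CPM (1.73–2.15), 111 CPM (107–115) and 0.626 CPM (0.540–0.721). Mmp2 was therefore 27.0 times as high in fibroblast-like as in macrophage-like cells, and Mmp9 57.6 times as high in macrophage-like as in fibroblast-like cells. With called doublets kept, the log2 ratio of Mmp9 in fibroblast-like over macrophage-like cells moved from -5.85 to -4.63.

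The membrane-type enzyme Mmp14 (chromosome 14, 54431612–54445364, plus strand), which activates pro-MMP2 with the help of TIMP2, followed Mmp2 with 254 CPM (252–256) in fibroblast-like, at 7.25 CPM in macrophage-like and at 3.42 CPM in mast cell-like cells. Mmp16, another membrane-type MMP, was lower in CPM, at 7.08 CPM in fibroblast-like cells, with 5 UMIs in macrophage-like cells. The other 4 membrane-type genes were below 5 CPM in all classes. Mmp2, Mmp14 and Timp2 were detected together in 2916 of 5214 thinned fibroblast-like cells (55.9%, exact Clopper-Pearson interval 54.6–57.3), in 16 of 2062 macrophage-like cells (0.776%) and in 1 of 20298 mast cell-like cells. In fibroblast-like cells this was 1.06 times the number that the 3 separate shares would give.

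Among the stromelysins, Mmp3 (chromosome 9, 7445822–7455975, plus strand) encodes a broad enzyme that also activates other pro-MMPs. Mmp3 was at 804 CPM (800.2–809) in fibroblast-like, at 19.5 CPM in macrophage-like and at 14.0 CPM in mast cell-like cells. Mmp11 was at 17.2 CPM, 0.756 CPM and 0.362 CPM, and Mmp10 was at 0.531 CPM in fibroblast-like cells. Mmp3 was uneven from cell to cell. It was detected in 69.4% of fibroblast-like cells, and the 5% of cells with the most Mmp3 held 45.2% of its UMIs, up to 1025 in 1 cell. For Mmp2 the same fraction of cells held 20.4% of the UMIs and for Col1a1 20.3%. Mmp19 and Mmp23 were the other MMPs of the fibroblast-like cells. Mmp19 was at 79.0 CPM (77.6–80.3) and was also found in macrophage-like cells at 17.6 CPM (16.1–19.2), above the range of fibroblast markers, and at 2.01 CPM in mast cell-like cells. Mmp23 was at 56.7 CPM, 1.51 CPM and 1.04 CPM.

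Macrophage-like cells were above both other classes for 3 MMPs that include the collagenase Mmp13 and the elastase Mmp12. Mmp13 (chromosome 9, 7272514–7283331, plus strand) was at 45.3 CPM (42.9–47.8) in macrophage-like, at 1.10 CPM in fibroblast-like and at 0.217 CPM in mast cell-like cells. Its log2 ratio of fibroblast-like over macrophage-like cells was -5.36, and was -6.53 with cells of 1 tag per class and -4.59 with called doublets kept. Mmp12 (chromosome 9, 7344381–7369499, plus strand) was at 34.2 CPM (32.1–36.4), 0.474 CPM and 0.168 CPM. Their UMIs came from few cells. Mmp12 was found in 72 of 2721 macrophage-like cells (2.65%), with up to 289 UMIs in 1 cell, and Mmp13 in 288 cells (10.6%), where 86.3% of its UMIs lay in the top 5% of cells. Mmp19 was found in 9.08% of these cells, with 78.5% of its UMIs in the top 5% and up to 42 in 1 cell. Mmp9 was spread more widely, over 1174 cells (43.1%), with 30.5% of its UMIs in the top 5%, and Csf1r, a growth factor receptor that defines macrophages, had 14.9% there. The collagenase Mmp8 was at 2.13 CPM in macrophage-like cells and at 0.931 CPM in fibroblast-like cells, and Mmp25 was at 2.17 CPM in macrophage-like cells.

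In thinned macrophage-like cells Mmp9 and Mmp13 were found together in 21 cells, while their separate shares would give 62.9, and Mmp9 and Mmp12 in 7 cells against 17.0. Mmp12 and Mmp13 were found together in 13 cells against 4.30. The other genes of these cells were then described, with groups and genes chosen after these values were seen and so with no test. Of 2721 macrophage-like cells 204 had 2 or more UMIs of Mmp12 and Mmp13, with no need of both genes (17 of them also 2 or more of Mmp9). Mmp12 itself was found in only 72 macrophage-like cells, so most of the 204 held Mmp13 without Mmp12. They are called cells with Mmp12 or Mmp13 below. A further 739 cells had 2 or more UMIs of Mmp9, and 1266 had none of the 3. Of the first group 66.7% and of the second 73.3% carried the Macrophages tag alone, and 30.9% and 25.8% carried several tags. Median depth was 10358.5, 9618 and 8114.5 UMIs in the 3 groups.

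Genes outside the families at 100 CPM or more were ranked by ratio. Those with the largest ratio towards the cells with Mmp12 or Mmp13 were Gpnmb, Vcam1, Cd300c2, Il1b, Fabp5, Bcl2a1b, Cd52, Lpl, Cx3cr1 and Glipr1. Gpnmb, a glycoprotein of lysosomes and the cell surface, was at 159 CPM (144–176) in these cells, at 3.38 CPM (2.26–4.85) in cells with Mmp9 and at 10.95 CPM in cells with none of the 3. Lpl, the lipase that frees fatty acids from lipoproteins, was at 478, 114 and 147 CPM, and Il1b, the cytokine interleukin 1 beta, at 331, 69.0 and 159 CPM. In the other direction stood Cd209g, Cd209f, Fcna, C4b, Cd209d, Ednrb, Cd209b, Clec10a, Ccl24 and Lyve1. Lyve1 is a hyaluronan receptor known from macrophages of vessel walls. It was at 578 CPM (562–595) in cells with Mmp9, 393 CPM in cells with none and 101 CPM (89.4–114) in cells with Mmp12 or Mmp13. Cd209f, a C-type lectin, was at 559, 164 and 50.7 CPM in the same order. General macrophage markers differed less. Adgre1 was at 303 CPM in cells with Mmp12 or Mmp13 and at 334 CPM in cells with Mmp9, and C1qb at 1756 and 1900.3 CPM. Mrc1 differed more, at 1553 and 3960 CPM.

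Members also differed between these cells. Adam8, Mmp14 and Mmp19 were at 25.9, 15.5 and 36.0 CPM in cells with Mmp12 or Mmp13 and at 7.93, 5.13 and 14.9 CPM in cells with Mmp9. Mmp19 UMIs came from few cells. Adam9, at 98.6 and 104 CPM, and Adam10, at 94.4 and 116 CPM, differed less between the same groups. The members named here were picked after their values were seen, and intervals cover counting error only. Timp2 and Adam15 were lower in the cells with Mmp12 or Mmp13, at 284 CPM (264–306) against 509 CPM (494–525) and at 63.4 against 121 CPM.

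**Figure D2:**
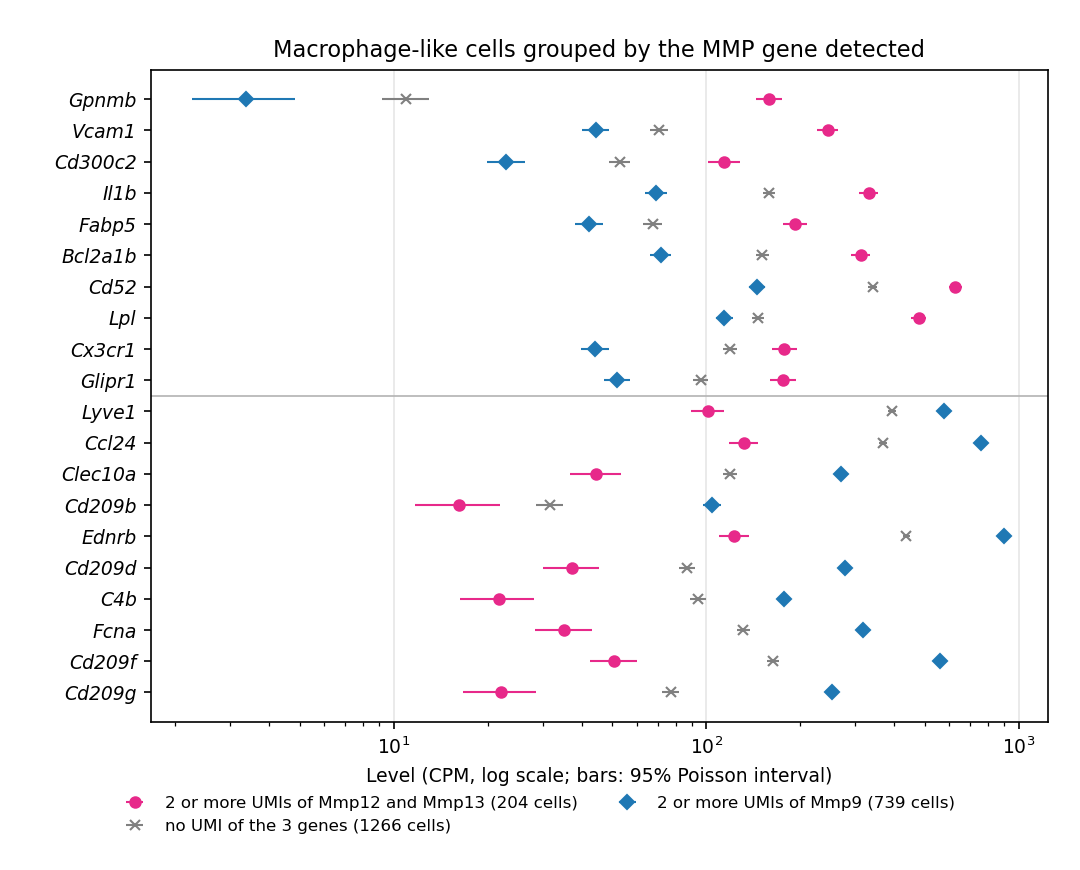
Level in CPM, on a log axis with 95% Poisson intervals, of the 10 genes with the largest ratio in each direction (rows) in macrophage-like cells. The groups had 2 or more UMIs of Mmp12 and Mmp13 (with no need of both genes), 2 or more UMIs of Mmp9, or none of the 3 genes. Gpnmb separates the groups most, at 159 against 3.38 CPM, and cells with none of the 3 genes lie between the other 2 groups for all genes shown.

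These MMP genes are neighbours. On chromosome 9 of GRCm38, 9 MMP genes of the matrix lie between 7272514 and 7699585, a span of 427072 bases. Along the chromosome they are Mmp13, Mmp12, Mmp1b, Mmp3, Mmp10, Mmp8, Mmp27, Mmp20 and Mmp7. The collagenase gene Mmp1a was not in the matrix, so this count and order cover measured genes only. Mmp13 and Mmp12, at one end, were highest in macrophage-like cells. Mmp3, 57774 bases beyond Mmp1b, was highest in fibroblast-like cells. Mmp8 was highest in macrophage-like cells, at 2.13 CPM. Its neighbour Mmp27 was at 7.22 CPM (6.93–7.53) in mast cell-like cells, against 3.37 and 2.88 CPM in macrophage-like and fibroblast-like cells, and did not pass the 4-fold rule. Mmp1b, Mmp10, Mmp20 and Mmp7 were below 1 CPM in all classes. Mmp12 and Mmp1b overlap on opposite strands. In macrophage-like cells Mmp1b, Mmp20 and Mmp7 had 0 UMIs, which allows up to 0.103 CPM (3 UMIs).

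**Figure D3:**
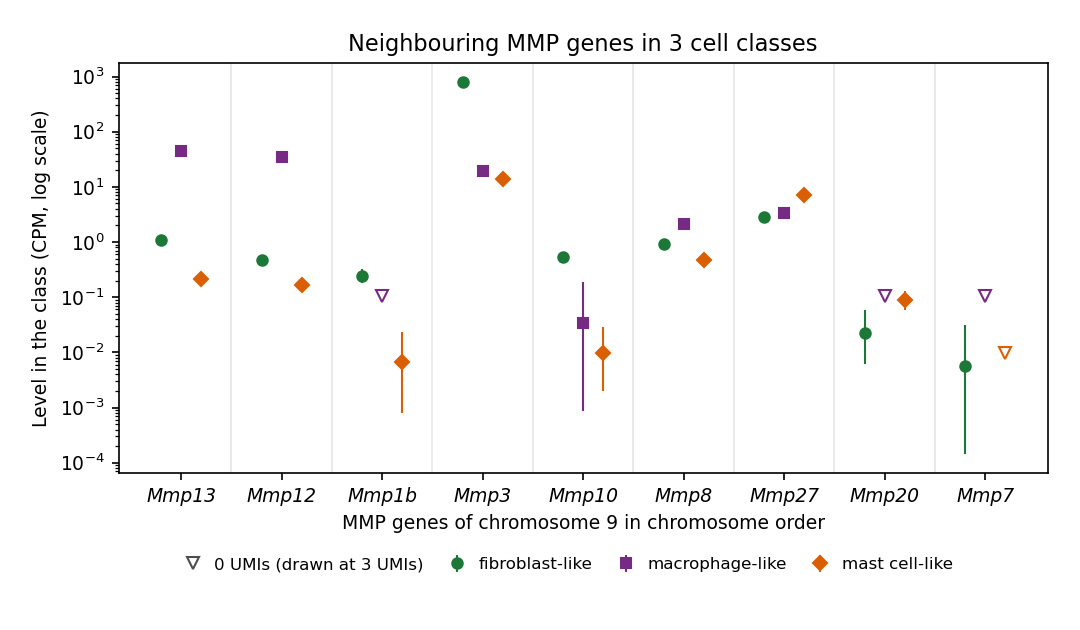
Level of the 9 MMP genes of chromosome 9 that are in the matrix, in chromosome order, in CPM on a log axis with 95% Poisson intervals. Open triangles mark 0 UMIs and are drawn at the level of 3 UMIs. Mmp13 (45.3 CPM) and Mmp12 (34.2 CPM) are highest in macrophage-like cells and Mmp3 (804 CPM) in fibroblast-like cells. Mmp27 is highest in mast cell-like cells (7.22 CPM) without passing the 4-fold rule. The classes do not follow the order of the genes, since Mmp8, beside Mmp27, is highest in macrophage-like cells (2.13 CPM).

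Since neighbouring genes differed in the class that held them, their promoters are shown, from 100 to 21 bases before the RefSeq start (GRCm38.p6, plus strand). Capitals mark a match to TGANTCA, the site of the AP-1 factors, or to GAGGAAGT, a site of the transcription factor PU.1. Each was searched on both strands of the 300 bases around each start. The letters of the 2 motifs do not overlap in these windows.
Mmp13: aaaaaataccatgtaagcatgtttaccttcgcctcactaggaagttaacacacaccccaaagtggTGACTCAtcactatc
Mmp12: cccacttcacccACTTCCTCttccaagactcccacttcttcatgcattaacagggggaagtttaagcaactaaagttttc
Mmp3: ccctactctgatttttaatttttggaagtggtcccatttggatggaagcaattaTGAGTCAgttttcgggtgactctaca
Mmp10: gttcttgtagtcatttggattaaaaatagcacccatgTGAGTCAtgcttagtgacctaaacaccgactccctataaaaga
Mmp27: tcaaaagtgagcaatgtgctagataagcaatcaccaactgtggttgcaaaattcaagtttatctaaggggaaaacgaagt
The stretches are chr9:7272414-7272493 for Mmp13, chr9:7344297-7344376 for Mmp12, chr9:7445722-7445801 for Mmp3, chr9:7502242-7502321 for Mmp10 and chr9:7571296-7571375 for Mmp27. The AP-1 match lies 35 bases before the start of Mmp13, 46 before that of Mmp3 and 63 before that of Mmp10. For Mmp12 the PU.1 match lies 88 bases before the first of its 2 RefSeq starts, and an AP-1 match lies 44 bases before the second. Of 32851 RefSeq promoters of this length 7.81% hold the AP-1 motif and 3.20% the PU.1 motif. Of the 57 promoters of 52 members in the table, 12 and 4 do. Among the chromosome 9 genes not shown, Mmp7 and Mmp8 hold the PU.1 motif, and Mmp1b, Mmp20 and Mmp7 the AP-1 motif. All of these were below 5 CPM in every class, so the motifs were not limited to the genes with high levels. A match is a description of the letters, and binding was not measured.

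The ADAMTS enzymes that cut large proteoglycans such as versican and aggrecan number 7. Of these 7, 5 were higher in fibroblast-like than in both other classes (background 3.95%). The same 5 were those that reached 5 CPM in a class, a limit that a gene could pass through fibroblast-like cells alone. Adamts1 (chromosome 16, 85793827–85803113, minus strand) was at 116 CPM (114–117) in fibroblast-like, at 5.98 CPM in macrophage-like and at 6.94 CPM in mast cell-like cells. Its neighbour Adamts5 (chromosome 16, 85856173–85901828, minus strand) was at 130.3 CPM (128.6–132), 11.9 CPM and 22.5 CPM (22.0–23.0). Adamts9 was at 40.7, 4.33 and 7.63 CPM. For these 3 the levels in both other classes were above the range of the fibroblast markers. Adamts4 was at 42.4, 1.27 and 0.451 CPM and Adamts15 at 40.5, 1.17 and 0.889 CPM, within or below that range in both classes. Of the genes whose site has the asparagine codon, Adamts20 stayed at 0.632 CPM or below, and Adamts8, with the serine codon, at 0.0571 CPM or below.

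Procollagen N-propeptidases remove the amino-terminal propeptide of fibrillar collagens. Adamts2 (chromosome 11, 50602084–50807573, plus strand) was at 256 CPM (254–258) in fibroblast-like, at 4.78 CPM in macrophage-like and at 3.77 CPM in mast cell-like cells, a ratio of 53.5 over macrophage-like and 67.9 over mast cell-like cells. Adamts3 differed from it, with 6.16 CPM (5.79–6.54), 3.03 CPM and 5.61 CPM (5.35–5.88), and Adamts14 was below 5 CPM. Adamts12 was at 132 CPM in fibroblast-like cells, at 2.68 CPM in macrophage-like and at 1.69 CPM in mast cell-like cells. Adamts10 passed the rule in no comparison, at 17.3, 9.08 and 15.6 CPM.

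Adamts6 and the ADAMTS-like Adamtsl3 were among the members that mast cell-like cells also held. Adamts6, an enzyme linked to fibrillin microfibrils (chromosome 13, 104287835–104496695, plus strand), was at 165 CPM (163–167) in fibroblast-like, at 89.5 CPM (88.4–90.5) in mast cell-like and at 43.0 CPM (40.6–45.4) in macrophage-like cells. Adamtsl3 (chromosome 7, 82335694–82614450, plus strand), which has no protease site, was at 25.3 CPM (24.8–25.9) in mast cell-like, at 9.70 CPM (8.60–10.9) in macrophage-like and at 8.10 CPM (7.69–8.54) in fibroblast-like cells. For both genes the macrophage-like level was at 0.4803 and 0.383 of the mast cell-like level, beside 0.309 to 0.387 for the mast cell markers. With cells of 1 tag per class, the log2 ratio of Adamtsl3 in macrophage-like over mast cell-like cells moved from -1.39 to -2.57, past the 4-fold rule. Adamtsl5, also without the site, was at 23.0 CPM in fibroblast-like, at 15.6 CPM in macrophage-like and at 1.61 CPM in mast cell-like cells, and Adamtsl4 at 8.02, 6.50 and 5.07 CPM.

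Within mast cell-like cells 4 of 19 members at 5 CPM or more in a cluster differed by 4 times or more between the 6 clusters, against 7.45% of 9735 genes of any kind at that level, and all 4 were highest in clusters led by Mrgprb1 and Mrgprb2 or by Slc6a4 and Ifitm1. Mrgprb1 and Mrgprb2 encode receptors of connective tissue mast cells. Adamtsl3 was at 75.3 CPM (73.1–77.7) in the cluster led by them and at 8.76 to 20.9 CPM in the other 5. Adamts6 was at 201 CPM (198–205) there, above its level of 165 CPM in fibroblast-like cells, and at 50.2 to 79.1 CPM elsewhere. Adamtsl1, also without the site, was at 19.5 CPM (18.3–20.7) there and at 3.34 to 9.26 CPM elsewhere. Mmp27 was highest, at 15.9 CPM (14.8–17.1), in the cluster led by Slc6a4 and Ifitm1, followed by 11.7 CPM (10.8–12.7) in the Mrgprb1 cluster, and was at 2.92 to 6.45 CPM in the other 4. Members were left out of the clustering, so they did not form these clusters. In thinned mast cell-like cells Adamts6 and Adamtsl3 were found together in 1207 of 20298 cells (5.95%), 1.45 times the number that separate shares would give. Xist, too, was higher in the Mrgprb1 cluster, at 844 CPM, than in the other 5 mast cell-like clusters (216 to 333 CPM), and its part in these differences was not tested.

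**Figure D4:**
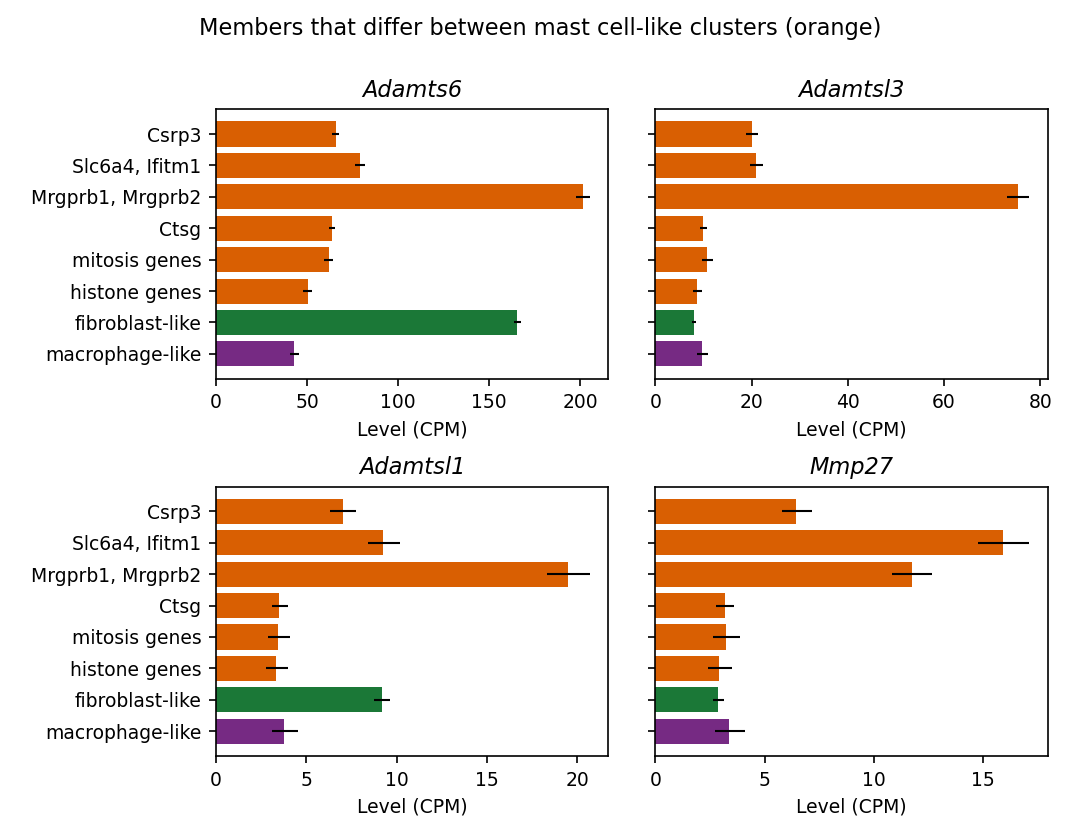
Level in CPM (bars, with 95% Poisson intervals) of the 4 members that differ by 4 times or more between the 6 mast cell-like clusters, named by leading genes, with fibroblast-like and macrophage-like cells for comparison. Adamts6, Adamtsl3 and Adamtsl1 are highest among mast cell-like clusters in the one led by Mrgprb1 and Mrgprb2, and Mmp27 in the one led by Slc6a4 and Ifitm1.

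The ADAMs are membrane proteins, and those with the site release cell-surface proteins by cutting them near the membrane. Adam10, which cuts Notch receptors among others (chromosome 9, 70678997–70780229, plus strand), was found in all classes without passing the 4-fold rule, with 72.6 CPM (71.4–73.9) in fibroblast-like, at 109 CPM (105–112) in macrophage-like and at 99.9 CPM (98.8–101) in mast cell-like cells. Adam17, the enzyme that frees tumour necrosis factor (chromosome 12, 21323509–21373632, minus strand), was at 41.9 CPM (40.9–42.8), 95.6 CPM (92.1–99.2) and 27.8 CPM (27.2–28.4). Adam10 was detected in 33.2%, 44.7% and 44.0% of thinned cells and Adam17 in 21.5%, 39.9% and 15.8%. Adam15 was at 98.6 CPM (95.1–102) in macrophage-like, at 25.7 CPM in fibroblast-like and at 18.0 CPM in mast cell-like cells, so that it passed the 4-fold rule over mast cell-like cells and lay at 3.83 times the fibroblast-like level. Adam9 and Adam19 were shared by fibroblast-like cells (88.9 and 76.7 CPM) and macrophage-like cells (101 and 76.6 CPM), and were at 16.6 and 1.81 CPM in mast cell-like cells. Adam33, which holds the site, and Adam22 and Adam32, which lack it, had the same shape at lower levels. Each of these was at 7.72 to 15.8 CPM in fibroblast-like cells, 8.08 to 13.9 CPM in macrophage-like cells and 0.362 to 0.5005 CPM in mast cell-like cells.

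Adam12, linked to growing mesenchyme and muscle, and Adam23, a cell-adhesion protein without the protease site, belonged to fibroblast-like cells. Adam12 was at 124 CPM (122–126), 1.75 CPM and 1.52 CPM in fibroblast-like, macrophage-like and mast cell-like cells, and Adam23 at 115 CPM (114–117), 2.37 CPM and 1.61 CPM. Adam8, an ADAM of white blood cells, was at 10.8 CPM (9.67–12.1) in macrophage-like, at 1.57 CPM in fibroblast-like and at 1.25 CPM in mast cell-like cells. Adam30 was at 5.23 CPM (4.43–6.13), 0.971 CPM and 0.257 CPM in the same order, just above the 5 CPM limit, while Adamts14 at 4.46 CPM and Adam2 at 4.42 CPM lay just under it. With called doublets kept, and with at most 5% mitochondrial UMIs, 4 of the 5 macrophage-like members were counted.

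Fibroblast-like cells were not uniform. At a finer clustering 3 groups held 3594 cells led by Csmd1, Fmo2 and Col4a1, 1116 cells led by Ltbp1, Chrm3 and Dlk1 with Crabp1, and 628 cells led by the adipocyte genes Cfd, Hp and Adipoq. Of 35 members at 5 CPM or more in a group, 11 differed by 4 times or more between them, against 7.74% of 10911 genes of any kind at that level, the genes that formed the clusters included. Adam12 differed most, at 268 CPM (263–273) in the Crabp1 group, 73.3 CPM (71.7–74.8) in the Col4a1 group and 19.7 CPM (16.7–23.0) in the Adipoq group. Adam23 was at 175 CPM, 96.6 CPM and 35.0 CPM in the same order. Mmp2 and Mmp3 were lowest in the Crabp1 group, with 170 and 261 CPM in the Crabp1 group, 709 and 1014 CPM in the Col4a1 group and 737 and 993 CPM in the Adipoq group. The fibroblast markers Col1a1 and Dcn were also lowest in the Crabp1 group, at 1166 and 432 CPM. They were at 3460 and 1634 CPM in the Col4a1 group and at 2445 and 1761 CPM in the Adipoq group. Timp3 was highest in the Col4a1 group at 412 CPM (409–416), against 112 and 161 CPM in the Crabp1 and Adipoq groups, as was Adamts4 at 56.4 CPM against 12.9 and 12.4 CPM. Adamts15 was highest in the Adipoq group at 73.7 CPM (67.9–79.8), against 48.7 CPM in the Col4a1 group and 14.0 CPM in the Crabp1 group. Timp2 did not follow these differences, at 501, 545 and 566 CPM. Median depth was 39810.5 UMIs in the Crabp1, 31434 in the Col4a1 and 11259 in the Adipoq group, and Cma1, the mast cell chymase, was at 2943, 3142 and 6463 CPM there. Xist was at 516, 801 and 246 CPM in the same groups. The part of depth, of mast cell RNA, of Xist-bearing cells and of the level of fibroblast markers in these differences was not tested.

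**Figure D5:**
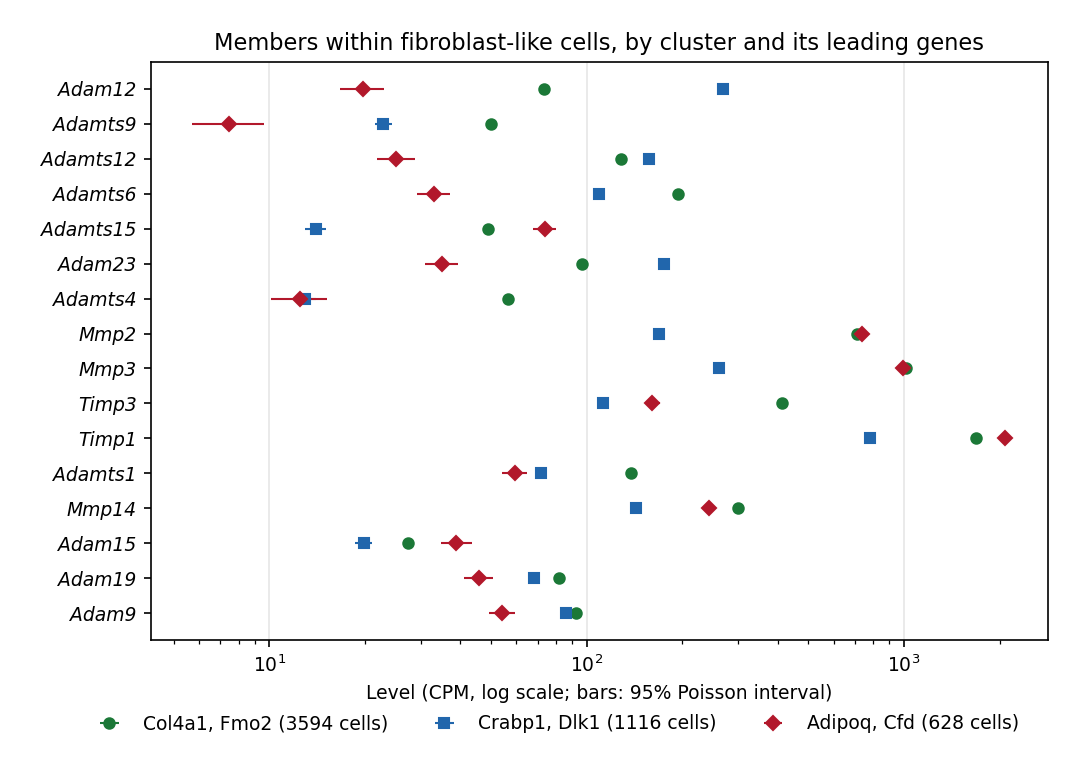
Level in CPM, on a log axis with 95% Poisson intervals, of the 16 members (rows) that differ most between 3 groups of fibroblast-like cells, named by leading genes. Adam12 and Adam23 are highest in the Crabp1 and Dlk1 group, while Mmp2 (170 CPM) and Mmp3 (261 CPM) are lowest there. The fibroblast markers Col1a1 and Dcn, not drawn, were also lowest in that group.

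Fibroblast-like cells carried different tags, and members followed the tag only in part. Mmp2 was at 509 CPM in 2612 cells with the Matrigel tag alone, 626 CPM in 356 cells with the Cafum tag alone and 1018 CPM in 1121 cells with no tag. Adam12 was at 162, 31.1 and 56.3 CPM and Mmp3 at 868, 563 and 1101 CPM in the same order. Crabp1, the gene of the group with the highest Adam12, was at 20.5, 0.258 and 0.457 CPM, and Cma1 was at 1422, 8033 and 1641 CPM. Timp1 varied less, at 1555, 1348 and 1746 CPM. Among cells with the Cafum tag alone, the 15812 mast cell-like cells had Mmp2 at 14.1 CPM and Timp1 at 22.2 CPM, so the difference between these classes was also seen within 1 tag. Of macrophage-like cells 12 carried that tag alone, too few for the same comparison.

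Some members were high in small unnamed clusters. In 35 cells with 3 of 4 Schwann cell markers Adamtsl1 was at 283 CPM (251–318), against 3.75 to 9.17 CPM in the 3 classes, and Adamts5 was at 259 CPM (228–292). In a cluster of 120 cells Adamts1 was at 319 CPM (296–344) and Adamts9 at 280 CPM (258–303), against 116 and 40.7 CPM in fibroblast-like cells. Its leading genes were Hmcn1, Clu and Slpi but also Igkc and Ccl5. At the finer clustering Hmcn1, Clu and Slpi led 37 cells, and Igkc and Ccl5 led 51 cells with 6 of 6 T cell markers. The 120 cells may thus be of more than 1 kind. The levels in the 2 clusters rest on 278 and 254 UMIs of the first 2 genes and on 699 and 613 UMIs of the others. Both clusters were picked after their values were seen.

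Other genes of the same pathways were taken from fixed lists. Of all genes, 5.83% were higher in fibroblast-like than in mast cell-like cells and 2.23% the other way, which is the background for the counts below. Of 15 other inhibitors of matrix proteases, 9 were higher in fibroblast-like than in mast cell-like cells, among them Serpinf1 (520 against 10.0 CPM) and Serpine2, or protease nexin 1 (376 against 6.09 CPM). Cst3, the cathepsin inhibitor cystatin C, was at 2596 CPM in macrophage-like, at 1282 CPM in fibroblast-like and at 646 CPM in mast cell-like cells. Of 18 genes of procollagen processing and related proteases, 10 were higher in fibroblast-like than in mast cell-like cells, for example Pcolce, the enhancer of procollagen C-proteinase (304 against 6.14 CPM), and the collagen-cutting cathepsin Ctsk (251 against 5.12 CPM). Furin, which removes the propeptide of MT-MMPs, ADAMs and ADAMTS enzymes, went the other way, at 859 CPM in mast cell-like, at 406 CPM in macrophage-like and at 152 CPM in fibroblast-like cells. In the plasminogen system, which can activate pro-MMPs, 2 of 7 were higher in fibroblast-like than in mast cell-like cells, with Anxa2 at 322 against 11.8 CPM, and 1, Plgrkt, was higher in mast cell-like cells at 533 against 122 CPM.

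Adam10 and Adam17 act with partner proteins and cut many surface proteins. Of 9 partners 3 were higher in fibroblast-like than in mast cell-like cells (background 5.83%). Tspan5, a tetraspanin that binds ADAM10, was at 176 CPM in fibroblast-like, at 40.6 CPM in macrophage-like and at 10.3 CPM in mast cell-like cells. Of 12 substrates 6 were higher in fibroblast-like than in mast cell-like cells (background 5.83%), 1 was higher in mast cell-like than in fibroblast-like cells (background 2.23%) and 5 were higher in macrophage-like than in mast cell-like cells (background 3.71%). Il6ra, the receptor of interleukin 6, was at 114 CPM in macrophage-like, at 19.1 CPM in fibroblast-like and at 0.682 CPM in mast cell-like cells. Hbegf, a growth factor of the EGF family, was at 84.8, 15.6 and 4.34 CPM in the same order. Tnf was at 116 CPM in mast cell-like, at 86.9 CPM in macrophage-like and at 19.3 CPM in fibroblast-like cells. The last list held 12 large proteoglycans and fibrillin microfibril genes, on which ADAMTS enzymes act or to which ADAMTS-like proteins bind. Of these, 9 were higher in fibroblast-like than in both other classes (background 3.95%), with Fbln2 at 1673 CPM, Fbn1 at 385 CPM and Vcan at 235 CPM.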

How the data were processed

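One library of aorta colony cells was analysed; a separate library of tags was not used here. The authors deposited raw UMI counts per gene and cell barcode with no normalization, made with Cell Ranger 7.0.0 per the submitters' processing notes, which also name the build mm10. The use of strand and of intronic reads is not given in the sources used here. The matrix had 5.93249e+08 gene UMIs in 34813 barcodes, and 3 tag features (21.9% of UMIs) were kept out of gene totals.

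Filters of 500 genes, 1000 UMIs (both minimum) and 10% mitochondrial UMIs (maximum) left 33964 barcodes, and Scrublet in scanpy 1.11.5, run on all barcodes, called 3245 doublets (9.32%), of which 3209 had passed the filters and were removed, leaving 30755. The rate assumed from the number of barcodes was 27.9%, so doublets may remain. Kept cells had 1001 to 243243 UMIs. Clusters came from 2000 variable genes, 30 components, 15 neighbours and leidenalg 0.10.2 at resolution 0.5; all members, markers and pathway genes were left out. A cluster of at least 200 cells, a minimum set after seeing the data, was called X-like from markers at 50 CPM and 4 times the lowest cluster. No authors' annotation was used; the names are rebuilt and can differ from the study's for that reason alone. A tag was called at 2 times its background (Cafum at 1.4 times). Counts were summed per class, and a gene was counted as higher at 5 CPM and 4-fold, with the lower class at no less than 3 UMIs. Named are members at 20 CPM or more in a class, all TIMPs, and per pathway list up to 3 genes at 50 CPM that were counted as higher; other names were chosen after values were seen. Intervals are exact Poisson or Clopper-Pearson at 95% and cover counting error only. Cells are not replicates, so no test was made. The planned RefSeq proteins were replaced by translated GENCODE M21 transcripts; 32235 of 32285 gene IDs matched that annotation. The counting steps were tested on simulated data. The members and lists were chosen with earlier results of these data known.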

Additional observations from a re-analysis of the deposited data

How the results depend on the processing

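Under 14 alternatives, 1 of them chosen after seeing the data, the counts of members above another class stayed within 1.5 times except as follows. Members higher in mast cell-like than in macrophage-like cells, 0 in the main analysis, numbered 1 with cells of 1 tag per class, 4 with a fold of 2, 8 after the background was taken from the lower class, and 1 without mast cell-like clusters led by Ctsg, mitosis or histone genes (the added alternative). Members higher in mast cell-like than in fibroblast-like cells, also 0, numbered 2 with a fold of 2, 2 after the background was taken and 1 without those clusters. Members higher in macrophage-like than in fibroblast-like cells numbered 3 instead of 5 with a fold of 8, and members higher in fibroblast-like than in mast cell-like cells went from 25 to 43 with no minimum level. Of 783 alternative values of 87 named ratios, 554 lay within the counting interval and the others outside it, and no ratio counted as higher changed sign. The largest moves were of Mmp9 with called doublets kept (by 1.22 on the log2 scale) and of Adamtsl3 (by 1.19) and Mmp13 (by 1.17) with 1 tag per class. For Adamtsl3 the uncounted log2 ratio of fibroblast-like over macrophage-like cells turned to 0.72. At resolution 1 only the 3594-cell group kept the fibroblast-like name. No paired analysis was possible because there is 1 library. Depth limits rare members most: 3 UMIs are 0.103 CPM in macrophage-like cells but 0.00988 CPM in mast cell-like cells.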
